A study of Mus musculus with 18 samples.

Results

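The genes described here encode the nuclear subunits of oxidative phosphorylation, the mitochondrial machinery that passes electrons to oxygen and makes ATP. They were chosen by symbol from the deposited gene table: Nduf genes with a subunit letter and number, the 4 Sdh genes, and all genes whose symbols begin with Uqcr, Cox4 to Cox8 or Atp5. The rule found 83 members among 18585 genes, of which 81 passed the filter on low values that 13809 genes passed. By complex, there were 35 members in complex I, 4 in complex II, 8 in complex III, 19 in complex IV and 15 in ATP synthase. The rule also took in Atp5s and Atp5sl, which are not subunits of ATP synthase despite their symbols and are listed apart. Ndufa4 and Ndufa4l2 carry complex I names and were counted with complex IV, where the Ndufa4 protein is now placed.

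RNA came from whole forepaws of C57BL/6 mice and was read by CEL-seq, which counts a tag near the 3′ end of each RNA. The 4 groups were WT control (4 libraries), Sema3b-/- control (4), WT arthritis (5) and Sema3b-/- arthritis (5). Sema3b encodes a secreted semaphorin, and the labels give the knockout as Sema3b-/-. The sources used here do not name the arthritis model, the part of Sema3b that was removed, or the age of the mice. A forepaw holds muscle, skin, bone, cartilage, marrow, fat and blood cells, so every value is an average over them, and fewer cells of a type cannot be told apart from less RNA per cell. No label states outright that each library is a separate animal, so p-values measure the spread between libraries. The titles of 2 Sema3b-/- control libraries give the same replicate number, 3, and the second of them, whose title otherwise differs, is called replicate 4 here.

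Complexes I to IV form the respiratory chain of the inner mitochondrial membrane. Complex I oxidises NADH, complex II oxidises succinate and is also a citric acid cycle enzyme, complex III passes electrons to cytochrome c, and complex IV reduces oxygen. ATP synthase uses the proton gradient that complexes I, III and IV build. A few complex IV subunits exist as tissue-restricted isoforms, and Cox6a2, Cox7a1 and Cox8b encode the forms typical of skeletal and heart muscle, while Cox6a1, Cox7a2 and Cox8a are expressed broadly.

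Total reads ranged from 1732783 to 19464892 per library, and 3 reads, the limit that a count of 0 allows, correspond to 1.31 to 12.1 normalized counts. Sema3b reads numbered 0 to 6 in the knockout libraries. By Xist and Y-linked genes, WT control held 4 females, Sema3b-/- control 2 females and 2 males, WT arthritis 1 female and 4 males, and Sema3b-/- arthritis 4 females and 1 male. The summed counts of 16 skeletal muscle markers took 2.53 to 3.23% of all counts in WT control and 2.38 to 5.07% in Sema3b-/- control. In WT arthritis they took 3.06, 3.88, 0.254, 1.22 and 1.56%, and in Sema3b-/- arthritis 2.15, 0.275, 1.83, 1.51 and 1.03%, in replicate order. The titles of 3 arthritis libraries (WT replicate 5, Sema3b-/- replicates 1 and 2) follow another style than the rest, and no control title begins like an arthritis title, so whatever goes with the titles cannot be told apart from arthritis.

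In arthritic Sema3b-/- forepaws 7 of the 81 tested members fell and none rose, while in arthritic WT forepaws 1 rose and 1 fell. The 7 that fell were Ndufv1, Ndufs1, Ndufa10, Uqcrc1, Cox4i2, Atp5b and Atp5sl. In that comparison 5.55% of the 13809 genes tested fell and 6.84% rose, 12.4% together (limma adjusted p under 0.05). Complex II had no call, but with 4 members tested and 5.55% of all genes falling this does not set it apart. The median log2 fold change of the members was -0.24 against -0.01 for all genes tested, and 67 of 81 members had a negative value. By complex the medians were -0.23 for complex I, -0.14 for complex II, -0.29 for complex III, -0.24 for complex IV and -0.19 for ATP synthase.

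In WT forepaws the 2 members that changed with arthritis were Ndufc2, which rose, and Atp5sl, which fell, where 2.64% of all genes tested rose and 1.58% fell, 4.21% together. The median over the members was 0.02, with 43 positive and 38 negative values, and that of all genes tested was -0.02. The sign of this median rested on single libraries, since it was -0.03 without WT control replicate 3, -0.04 without WT arthritis replicate 2 and 0.165 without WT arthritis replicate 3. Complex medians lay between -0.08 for complex III and 0.12 for complex II. With values scaled to the total of each library, the WT median became -0.20, but the median of all genes moved to -0.24 as well, so the members stayed close to the other genes. Under it 4 members fell in WT (Uqcr10, Ndufv1, Ndufs1 and Atp5sl), where 5.81% of all genes were called. The same scaling gave a Sema3b-/- median of -0.15 with all genes at 0.08, and 1 member higher (Uqcrh) and 5 lower, where 10.4% of all genes were called.

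The counts of calls in both genotypes rested on particular libraries and terms. The Sema3b-/- count was 1 without Sema3b-/- control replicate 4 or Sema3b-/- arthritis replicate 2 or 5, and 2 without Sema3b-/- control replicate 3. It was 3 without any 1 of the 4 WT control libraries, WT arthritis replicate 5 or Sema3b-/- arthritis replicate 1, and 4 without Sema3b-/- control replicate 1. The median of the members was -0.10 without Sema3b-/- control replicate 4. That library was the highest in muscle markers (5.07% of counts) and in epidermis markers (4.43%), and the lowest of its group in bone markers (0.348%). Without the 3 arthritis libraries of the other title style 1 member was called in each genotype, Atp5sl, lower in both, where 1.70% of all genes were called in WT and 2.89% in Sema3b-/-. The WT count was 1 without WT control replicate 1, 2 or 3 or WT arthritis replicate 4 or 5, and 3 without Sema3b-/- control replicate 4. Shares of all genes called are not given for the fits that left out 1 library. These counts therefore do not show whether such changes were particular to the members. With sex as a term, limma called no member in WT (0.963% of all genes) and 11 were lower in Sema3b-/- (13.3% of all genes).

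**Figure D1:**
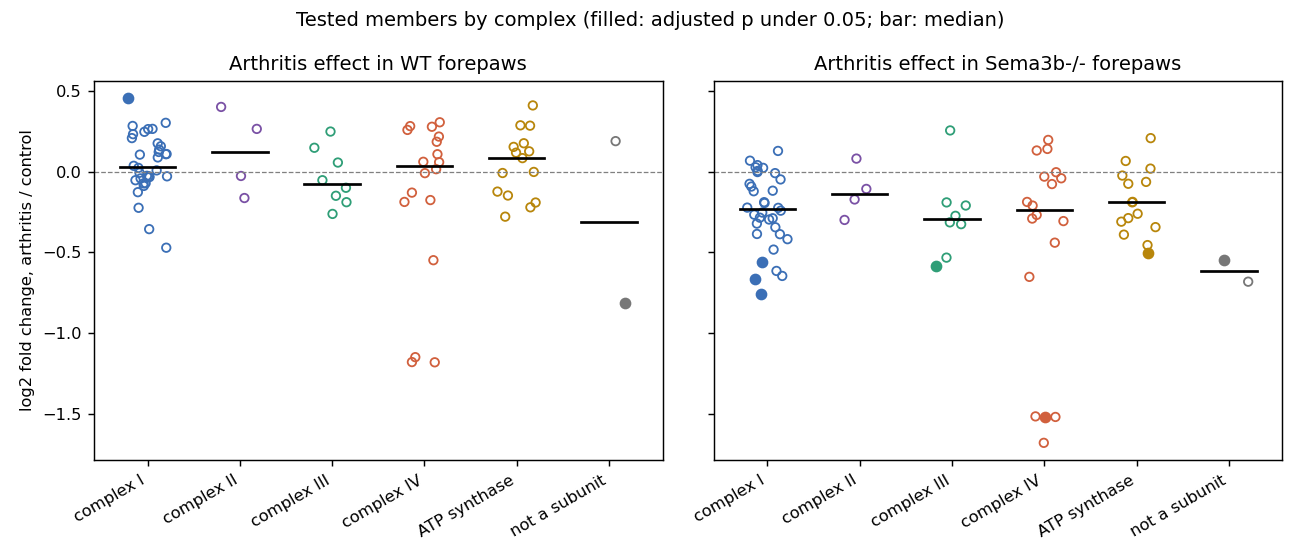
Each point is 1 tested member, placed by complex on the x axis and by its log2 fold change of arthritis over control on the y axis, with WT on the left and Sema3b-/- on the right; filled points have a limma adjusted p under 0.05 and bars are medians. The right panel sits lower, with 67 of 81 values below 0, and the 3 lowest WT points are Cox6a2, Cox8b and Cox7a1, none of them filled.

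Complex I holds the flavoprotein that accepts electrons from NADH. Of its 34 tested members 3 fell in Sema3b-/- arthritis, where 5.55% of all genes tested fell. Ndufv1 (mm10 chromosome 19, 4007384 to 4012806, minus strand) encodes the subunit that binds NADH and flavin. Its normalized counts were 821, 614, 658 and 1069 in the Sema3b-/- controls and 434, 450.1, 517, 474 and 411 in Sema3b-/- arthritis, with no overlap. The log2 fold change was -0.76 (SE 0.19, limma adjusted p = 0.0163). In WT the values were 663, 726, 623 and 697 in control and 578, 666, 305, 455 and 515 in arthritis, where WT arthritis replicate 2 reached into the control range (log2 fold change -0.47, SE 0.19, limma adjusted p = 0.161). Leaving out each of the 18 libraries in turn ended the Ndufv1 call once, without Sema3b-/- control replicate 4, at a limma adjusted p of 0.0514.

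Ndufs1 (chromosome 1, 63143596 to 63176833, minus strand), the largest iron-sulfur subunit of complex I, behaved likewise in the knockout. Sema3b-/- controls were at 1092, 883, 1085 and 1512 normalized counts and Sema3b-/- arthritis libraries at 762, 540.2, 880.5, 681 and 717. The groups met without overlapping, since the highest arthritis library lay just under the lowest control, and the log2 fold change was -0.66 (SE 0.21, limma adjusted p = 0.0452). In WT control Ndufs1 was at 1114, 1012, 947 and 869 and in WT arthritis at 1044, 1092, 502, 652 and 708, where replicates 1 and 2 lay within the controls and replicates 3 to 5 below them. Ndufa10, an accessory subunit, fell by 0.56 on the log2 scale in Sema3b-/- arthritis (SE 0.18, limma adjusted p = 0.0485), with a WT value of -0.07. The calls of Ndufs1 and Ndufa10 each ended in 12 of 18 fits that left out 1 library (limma adjusted p up to 0.133 and 0.142).

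Ndufc2 (chromosome 7, 97400003 to 97407802, plus strand), a small membrane-arm subunit, was the only member that rose in any comparison. WT control libraries were at 2858, 2873, 2468 and 3077 normalized counts and WT arthritis libraries at 3998, 4214, 3241, 4109 and 3767, with every arthritis library above every control. The log2 fold change was 0.45 (SE 0.11, limma adjusted p = 0.0302). Sema3b-/- controls were at 3237, 2936, 2764 and 3953 and Sema3b-/- arthritis at 3139.5, 3156, 3190.3, 2951 and 3437, which overlapped, and the log2 fold change there was -0.01. The difference between the genotypes in this response was -0.46 (SE 0.16, limma adjusted p = 0.974). The WT call of Ndufc2 ended without WT control replicate 1, 2 or 3 or WT arthritis replicate 4 or 5 (adjusted p up to 0.117) and with sex as a term (limma adjusted p = 0.0814). It also ended with values scaled to the library total (limma adjusted p = 0.213) and with a replicate block (0.0667), so it depended on the scaling. With the muscle term it passed (limma adjusted p = 0.014), as it did in edgeR (0.0218) and DESeq2 (0.00424).

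The other complex I member named for its low level was Ndufs5, which had 0 to 3 reads in each library and was not tested. It encodes a subunit of the intermembrane-space side of complex I that is present in every complex. Why its tags were so few was not tested.

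None of the 4 complex II genes passed the test in any comparison, where at most 12.4% of all genes tested did. Sdha, the flavoprotein that oxidises succinate, was at 1242, 1039, 1294 and 1353 normalized counts in Sema3b-/- control and 1022, 970.4, 1124, 932 and 943 in Sema3b-/- arthritis. WT control stood at 1049, 1203, 1130.5 and 1035 and WT arthritis at 1199, 1240.4, 740.4, 859 and 975. These ranges overlapped in both genotypes, with log2 fold changes of -0.16 in WT and -0.30 in Sema3b-/-. Sdhb, the iron-sulfur subunit, was at 672, 598, 517 and 617 and 766, 884, 607, 731 and 639 in WT control and arthritis, and at 583, 629, 590.1 and 1140.5 and 599, 553, 682, 551 and 767 in the Sema3b-/- groups. Sema3b-/- control replicate 4 stood far above its group for Sdhb. Sdhd, a membrane anchor, was at 114, 133, 115 and 133 in WT control, 155, 160.1, 129, 193 and 187 in WT arthritis, 146, 131, 127 and 149 in Sema3b-/- control and 133, 154, 159, 129 and 156 in Sema3b-/- arthritis. Its log2 fold changes were 0.40 in WT (limma adjusted p = 0.103) and 0.08 in Sema3b-/-.

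In complex III, 1 of 8 members fell in Sema3b-/- arthritis, where 5.55% of all genes tested fell, and none changed in WT. Uqcrc1 (chromosome 9, 108936633 to 108949623, plus strand) encodes a core subunit. It was at 728, 678, 881 and 1287 normalized counts in Sema3b-/- control and 689, 615, 485, 542 and 572 in Sema3b-/- arthritis (log2 fold change -0.58, SE 0.18, limma adjusted p = 0.0427). The highest arthritis library lay above the lowest control, and the control values ran up to that of replicate 4. In WT it was at 598, 594, 727 and 704 in control and 444, 738, 454, 535 and 601 in arthritis, with a log2 fold change of -0.26. The call ended in 11 of 18 fits without 1 library (limma adjusted p up to 0.137).

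Uqcrfs1, the Rieske iron-sulfur protein that hands electrons on within complex III, was at 906, 735, 829 and 1331 in Sema3b-/- control and 634, 488, 855, 659.6 and 614 in Sema3b-/- arthritis (log2 fold change -0.53, limma adjusted p = 0.0978). WT control was at 802, 920.4, 649 and 828 and WT arthritis at 756, 1075, 519, 611 and 728. Both pairs of groups overlapped. Uqcrh, the hinge protein of the complex, went the other way in both genotypes, with log2 fold changes of 0.25 in WT and 0.25 in Sema3b-/- (limma adjusted p = 0.242 and 0.169). Its WT arthritis libraries, at 2024, 1876, 1723, 1917 and 1975, were all above the WT controls, at 1577, 1655, 1597 and 1574. Sema3b-/- controls were at 1246, 1363, 1505 and 1627 and Sema3b-/- arthritis at 1633, 1378, 2230.4, 1709 and 1677, which overlapped.

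Complex IV held the widest spread of fold changes, and its 3 striated-muscle isoforms were the lowest members in WT. Cox6a2 (chromosome 7, 128205435 to 128206387, minus strand) was at 15912, 15937, 9483 and 12805 normalized counts in WT control and 19361, 15787, 728, 4613 and 6637 in WT arthritis. Sema3b-/- control libraries were at 9153, 8877, 14126 and 23181 and Sema3b-/- arthritis libraries at 8389, 984, 9011, 6017 and 3975. The 2 lowest libraries, WT arthritis replicate 3 and Sema3b-/- arthritis replicate 2, were also the 2 lowest in muscle markers, while WT arthritis replicates 1 and 2 were among the highest of all. The log2 fold change was -1.18 in WT (SE 0.83, limma adjusted p = 0.426) and -1.52 in Sema3b-/- (SE 0.83, limma adjusted p = 0.246), so neither passed the test.

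Cox7a1 (chromosome 7, 30184144 to 30186078, plus strand) was at 451, 675, 418 and 719.6 in WT control and 596, 727, 54.0, 136 and 289 in WT arthritis, and at 469, 497, 672 and 973 in Sema3b-/- control and 317, 59.7, 397, 221 and 166 in Sema3b-/- arthritis. Cox8b (chromosome 7, 140898945 to 140900446, minus strand) was at 1022, 1052, 836 and 975, 1113, 1051, 71.3, 319 and 528, 866, 703, 996 and 1401 and 625, 65.4, 689, 394 and 374 in the same order of groups. For both genes the Sema3b-/- groups did not overlap, whereas in WT arthritis replicates 1 and 2 lay within or near the controls and the other 3 lay below. Log2 fold changes in Sema3b-/- were -1.68 for Cox7a1 (SE 0.67, limma adjusted p = 0.114) and -1.52 for Cox8b (SE 0.75, limma adjusted p = 0.196). In WT they were -1.15 and -1.18 (limma adjusted p = 0.338 and 0.376).

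Groups that did not overlap were counted for all members as a plain reading of the values. In Sema3b-/- forepaws 10 members were lower in every arthritis library than in every control, namely Atp5a1, Atp5b, Atp5d, Atp5sl, Cox5a, Cox7a1, Cox8b, Ndufa11, Ndufs1 and Ndufv1, and none was higher, where 6.11% of all genes tested were lower and 7.13% higher. In WT forepaws 5 members were higher throughout (Atp5e, Cox7a2l, Cox8a, Ndufc2 and Uqcrh) and 1 was lower (Atp5sl), where 5.82% of all genes were higher and 4.71% lower. Cox8a, the broad isoform, is in the WT list and Cox8b, its muscle counterpart, in the Sema3b-/- list, but neither passed the test in limma. The number of members higher in WT is close to the share of all genes, so this pairing is not read as a difference between the isoforms.

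The broadly expressed isoforms had log2 fold changes between -0.08 and 0.28, none past the test. Cox6a1 was at 1942, 2032, 2025 and 2084 in WT control, 1931, 2211, 2683, 2718 and 2639.7 in WT arthritis, 2630.1, 2477, 2021 and 2337 in Sema3b-/- control and 2297, 3111, 2549, 2499.8 and 3138 in Sema3b-/- arthritis, with log2 fold changes of 0.26 and 0.20. Cox8a was at 4136, 3986, 4131 and 4326 in WT control and 4907, 4961, 4744, 5025 and 5576 in WT arthritis, where every arthritis library was above every control (log2 fold change 0.28, limma adjusted p = 0.113). Sema3b-/- groups overlapped for Cox8a, at 5195, 4429, 3626 and 4419 in control and 4358, 4784, 4689, 5057 and 5138 in arthritis. Cox7a2, whose highest and lowest WT arthritis libraries were the same as those of Cox7a1, stood at 1099, 1262, 998 and 1200.5 in WT control, 1328, 1523, 844, 1124 and 1203 in WT arthritis, 975, 1070.5, 1019.9 and 1671 in Sema3b-/- control and 1121, 923, 1207, 1094 and 1150.3 in Sema3b-/- arthritis, with log2 fold changes of 0.06 and -0.08.

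Ratios of the muscle to the broad isoform within a library, taken as log2 of each value plus 1, hardly depend on how libraries are scaled. In the knockout the log2 ratio of Cox7a1 to Cox7a2 was -0.88 ± 0.24 (SD, n = 4) without arthritis and -2.49 ± 0.93 (SD, n = 5) with it. That of Cox8b to Cox8a was -2.19 ± 0.50 (SD, n = 4) and -3.84 ± 1.39 (SD, n = 5). Both differences, -1.60 and -1.65, gave a two-sided exact permutation p of 0.0159, the smallest that 4 against 5 libraries allow, and an adjusted p of 0.159 over the 20 tests of 5 pairs in 4 comparisons. The ratio of Cox6a2 to Cox6a1 was 2.44 ± 0.74 (SD, n = 4) and 0.73 ± 1.47 (SD, n = 5), a difference of -1.71 (exact permutation p = 0.0794, adjusted p = 0.227). In WT the 3 differences were -1.44, -1.21 and -1.46 for Cox6a2, Cox7a1 and Cox8b (exact permutation p = 0.206, 0.0952 and 0.0794). Without WT arthritis replicate 3 these were -0.65, -0.78 and -0.84, and without Sema3b-/- arthritis replicate 2 the knockout differences of Cox6a2 and Cox8b were -1.11 and -1.07. No ratio passed the threshold after adjustment.

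**Figure D2:**
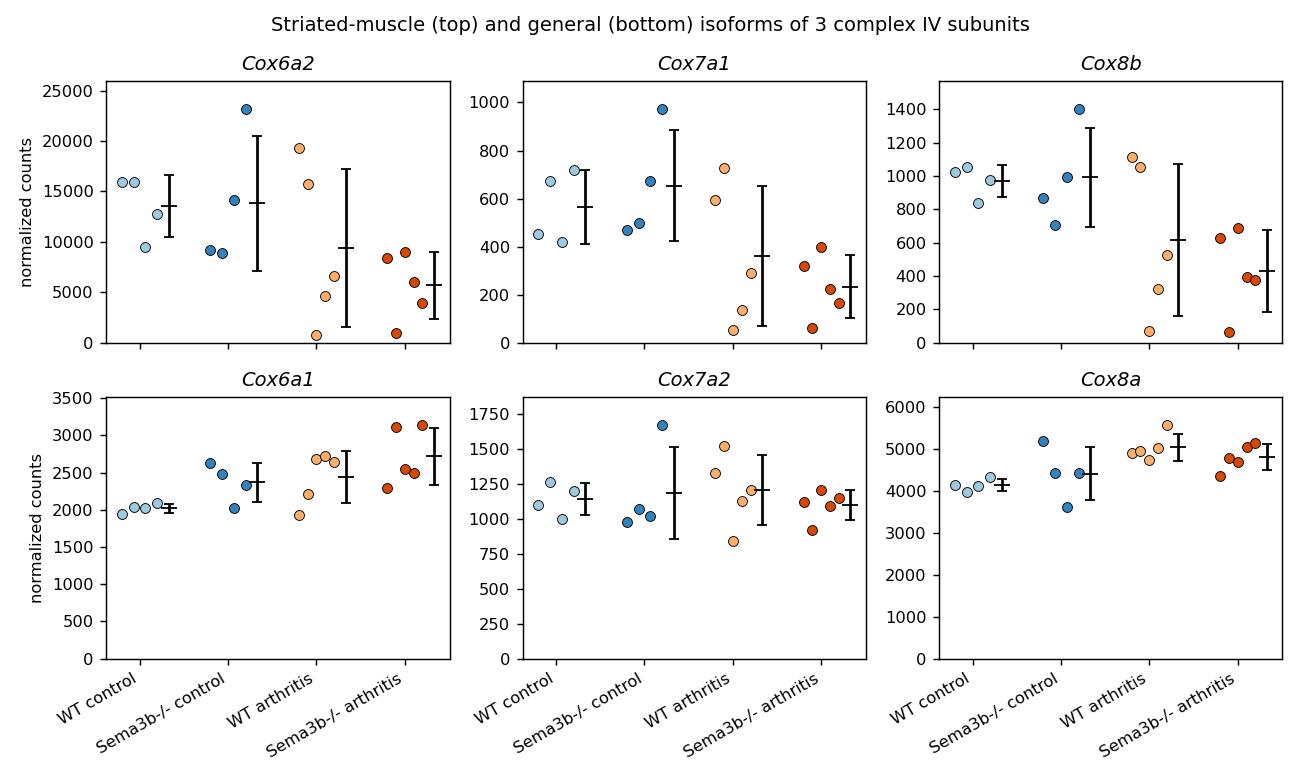
Normalized counts of the muscle isoforms Cox6a2, Cox7a1 and Cox8b (top) and of the broad isoforms Cox6a1, Cox7a2 and Cox8a (bottom), with 1 point per library in replicate order within each of the 4 groups on the x axis and the mean ± SD as a bar. In the top row WT arthritis splits into replicates 1 and 2 near the controls and replicates 3 to 5 below them, and Sema3b-/- arthritis replicate 2 is the lowest of its group, while Cox6a1 in the bottom row runs only from 1931 to 3138.

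To set a muscle isoform beside its broad counterpart, the sequence around the annotated start is shown for the pairs that RefSeq's GRCm38.p6 promoter table held in full (250 bases before the start and 50 after). Capitals mark exact matches, on either strand, to the muscle E-box CAGCTG, the TATA box TATAAA, the ETS factor core CCGGAA, the NRF1 palindrome (GCGC, any 2 bases, GCGC) or the estrogen-related receptor motif AAGGTCA. The windows are chr7:140900397-140900696 (Cox8b, minus strand), chr19:7217567-7217866 (Cox8a, minus strand), chr7:30183921-30184220 (Cox7a1, plus strand) and chr9:79759804-79760103 (Cox7a2, minus strand).
Cox8b: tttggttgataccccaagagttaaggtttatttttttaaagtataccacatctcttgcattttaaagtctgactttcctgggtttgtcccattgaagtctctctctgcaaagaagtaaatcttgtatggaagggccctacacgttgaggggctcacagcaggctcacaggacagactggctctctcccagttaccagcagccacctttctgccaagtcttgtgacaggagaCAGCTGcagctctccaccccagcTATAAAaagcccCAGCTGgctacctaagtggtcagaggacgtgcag
Cox8a: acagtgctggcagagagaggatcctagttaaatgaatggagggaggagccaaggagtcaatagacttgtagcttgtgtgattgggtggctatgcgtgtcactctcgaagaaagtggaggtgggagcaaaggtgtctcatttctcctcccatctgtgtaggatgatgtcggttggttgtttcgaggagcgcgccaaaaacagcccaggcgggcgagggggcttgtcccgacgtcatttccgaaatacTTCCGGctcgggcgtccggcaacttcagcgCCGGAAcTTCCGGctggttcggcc
Cox7a1: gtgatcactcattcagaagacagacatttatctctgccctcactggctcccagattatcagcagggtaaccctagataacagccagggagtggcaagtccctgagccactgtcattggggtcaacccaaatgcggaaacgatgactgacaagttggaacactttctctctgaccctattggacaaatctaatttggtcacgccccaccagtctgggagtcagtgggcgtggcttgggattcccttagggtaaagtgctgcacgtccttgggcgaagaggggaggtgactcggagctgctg
Cox7a2: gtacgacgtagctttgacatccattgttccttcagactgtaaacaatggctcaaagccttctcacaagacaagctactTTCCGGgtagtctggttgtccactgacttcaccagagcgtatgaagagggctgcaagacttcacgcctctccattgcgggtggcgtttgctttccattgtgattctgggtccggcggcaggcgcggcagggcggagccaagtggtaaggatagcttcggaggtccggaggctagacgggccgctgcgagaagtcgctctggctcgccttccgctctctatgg
The Cox8b window held 2 E-boxes, the first beginning 19 bases before the start and the second at base 17 after it, and no ETS core. Its TATAAA match began at base 5 after the annotated start, not upstream of it. The Cox8a window held 3 ETS cores and none of the other motifs, and that of Cox7a2 held 1 ETS core, 172 bases before the start. The Cox7a1 window held none of the 5 motifs.

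Over the 69 members with a window, 26 (37.7%) held the ETS core against 16.7% of the 27025 genes in the table, and 18 (26.1%) held the NRF1 palindrome against 7.0%. The receptor motif AAGGTCA was in 8 members (11.6%) against 5.4%. E-boxes and TATA boxes were in 6 (8.7%) and 7 (10.1%) of the members against 18.3% and 15.7% of all genes, and Cox8b was in both groups. A match of letters describes the window and shows no binding, and the windows differ in base composition, which was not taken into account.

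Cox4i2 (chromosome 2, 152754173 to 152765037, plus strand), an isoform known from lung and from cells that sense oxygen, was the 1 complex IV member that fell. It was at 48.6, 71.5, 55.8 and 20.4 normalized counts in Sema3b-/- control and 10.4, 8.53, 21.1, 24.4 and 16.0 in Sema3b-/- arthritis, and at 15.5, 53.2, 31.9 and 38.4 in WT control and 14.8, 19.6, 35.6, 27.2 and 15.8 in WT arthritis. The knockout groups overlapped because Sema3b-/- control replicate 4 was low, and each value came from 8 to 128 reads. The log2 fold change was -1.52 in Sema3b-/- (SE 0.43, limma adjusted p = 0.0282) and -0.55 in WT (SE 0.43). The call ended in 6 of 18 fits without 1 library (limma adjusted p up to 0.0759). Cox4i1, its broad counterpart, was at 1971, 2322, 2084 and 2774 in WT control, 2512, 2713, 2595, 3044 and 3209 in WT arthritis, 2391, 2353, 2453 and 2988 in Sema3b-/- control and 2414, 2321, 2391, 2739 and 2557 in Sema3b-/- arthritis, with log2 fold changes of 0.31 and -0.03.

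Ndufa4, a complex IV subunit, and Ndufa4l2, a paralog known as a target of hypoxia-inducible factor, showed no call. Ndufa4 was at 4274, 5041, 3361 and 5233 in WT control, 5568, 6419, 2748, 3773 and 4748 in WT arthritis, 4519.7, 3696, 3799 and 6723 in Sema3b-/- control and 4409, 2889, 4291, 3434 and 3571 in Sema3b-/- arthritis. Ndufa4l2 was at 154, 202, 214 and 228 in WT control and at 332, 249.7, 261 and 403 in Sema3b-/- control, with every knockout library above every WT one. Arthritic libraries were at 133, 157, 223, 214 and 161 in WT and 102, 212, 157, 343 and 235 in Sema3b-/-, which overlapped.

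Cox5a, the subunit that stands beside Cox4 in the assembled enzyme, was at 1954, 1625, 1757 and 3117 in Sema3b-/- control and 1547, 1392, 1522, 1547 and 1523 in Sema3b-/- arthritis. The groups did not overlap, and the log2 fold change of -0.44 did not pass the test (limma adjusted p = 0.105). WT libraries were at 1701, 1738, 1581 and 1906 in control and 1719.5, 2178, 1198, 1601 and 1363 in arthritis. Cox7b2, a testis isoform, had 0 to 5 reads in each library and was not tested.

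Of the 15 ATP synthase members 1 fell in Sema3b-/- arthritis, where 5.55% of all genes tested fell, and none changed in WT. Atp5b (chromosome 10, 128083273 to 128090391, plus strand), the catalytic beta subunit, was at 3751, 3855, 4214 and 5958 normalized counts in Sema3b-/- control and 3101, 2751, 3475, 3002 and 3102 in Sema3b-/- arthritis, with no overlap (log2 fold change -0.50, SE 0.16, limma adjusted p = 0.0478). In WT it was at 3708, 4075, 3549 and 3785 in control and 3386, 4543, 2332, 2963 and 3348 in arthritis (log2 fold change -0.22). The call ended in 12 of 18 fits without 1 library (limma adjusted p up to 0.149). Atp5a1, the alpha subunit, was at 3399, 3696, 4151 and 5852 in Sema3b-/- control and 3359, 2998, 3204, 3341 and 3058 in Sema3b-/- arthritis, again with no overlap, and its log2 fold change of -0.39 did not pass the test (limma adjusted p = 0.114). WT control stood at 3464, 3791, 3538 and 3578 and WT arthritis at 3554, 4532, 2416, 3037 and 3286 for Atp5a1.

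Atp5e, the small epsilon subunit of the rotor stalk, had the highest log2 fold change of the ATP synthase members in WT, 0.41 (SE 0.13, limma adjusted p = 0.0881). Its WT arthritis libraries, at 3254, 3708, 3018, 3549 and 3127, were all above the WT controls, at 2412, 2725, 1987 and 2993. Sema3b-/- control was at 2464, 2367, 2147 and 3317 and Sema3b-/- arthritis at 3225, 2649.6, 2912, 2889 and 3005, a log2 fold change of 0.21. The Atp5g2 gene, 1 of 3 that encode the same c-ring protein, had log2 fold changes of -0.00 in WT and 0.07 in Sema3b-/-.

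Atp5sl, also called Dmac2 and known for a part in complex I assembly, fell in both genotypes. WT libraries were at 147, 116, 135 and 138 in control and 63.6, 83.7, 65.5, 71.4 and 100.1 in arthritis, with no overlap (log2 fold change -0.81, SE 0.16, limma adjusted p = 0.0101). Sema3b-/- libraries were at 162, 139, 142 and 142 in control and 127, 98.6, 89.5, 102 and 86.1 in arthritis, again with no overlap (log2 fold change -0.54, SE 0.16, limma adjusted p = 0.0323). The WT call passed in all 18 fits that left out 1 library (limma adjusted p up to 0.043) but not with sex as a term (limma adjusted p = 0.0736), and the Sema3b-/- call ended in 6 of 18 fits (up to 0.076). The Sema3b-/- call also ended with the muscle term (limma adjusted p = 0.126), scaling to the library total (0.127) and a replicate block (0.0623). It passed with sex as a term (limma adjusted p = 0.0395). Since the 2 comparisons share no library, these are separate readings of the gene, though the 4 groups were fitted together.

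The authors' deposited table, read at the same adjusted p, called Ndufc2 higher and Atp5sl lower in WT arthritis, and Cox4i2 and Ndufv1 lower in Sema3b-/- arthritis. Of the 18585 genes listed it called 481 in WT arthritis and 973 in Sema3b-/- arthritis, where 79 and 81 members had an adjusted p. It called no member in either comparison of genotypes, with 0 genes called in control and 2 in arthritic forepaws. These calls rest on the same libraries and are not separate support.

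Most members were higher in libraries with more muscle marker counts, within groups. In a fit chosen after the data were seen, log2 of the summed muscle markers was added to the 4 group means, and the slope of each gene on it was tested in limma across all genes. A slope of 1 means that a gene doubled as the markers doubled within groups. Slopes were positive and past the threshold in 54 of 81 members and negative in 1, where 13.4% of all genes were positive and 6.99% negative. The median slope of the members was 0.14.

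Cox6a2 had a slope of 1.08 (SE 0.04, limma adjusted p = 5.82e-13), Cox8b 0.96 (SE 0.05, limma adjusted p = 8.18e-11) and Cox7a1 0.86 (SE 0.06, limma adjusted p = 5.34e-09). The next highest were Ndufa5 at 0.30, Atp5g1 at 0.28 and Ndufa4 at 0.26, so these 3 isoforms stood apart from the other members. The single negative slope past the threshold was that of Cox6a1, the broad counterpart of Cox6a2, at -0.11 (SE 0.03, limma adjusted p = 0.0260). Ndufa4l2 at -0.14 and Cox4i2 at -0.11 were also negative and did not pass (limma adjusted p = 0.296 and 0.639). Of the other broad isoforms, Cox7a2 had a positive slope of 0.18 (SE 0.04, limma adjusted p = 0.00355) and Cox8a a slope of -0.01 (SE 0.03, limma adjusted p = 0.855). By complex, slopes were positive and past the threshold in 26 of 34 members of complex I, 1 of 4 of complex II, 6 of 8 of complex III, 10 of 18 of complex IV and 11 of 15 of ATP synthase.

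The count of positive slopes fell to 31 without WT arthritis replicate 3 and to 31 without the 2 libraries lowest in muscle markers. With values scaled to the library total it was 22, where 10.1% of all genes were positive. The muscle markers did not vary alone, since the 11 epidermis markers all had positive slopes past the threshold with a median of 1.23, and 6 of 12 macrophage markers had negative ones. Which of these tissues the small slopes of the other members go with was not tested. Of the 13 mitochondrially encoded subunits, 12 had positive slopes past the threshold, with a median of 0.33.

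**Figure D3:**
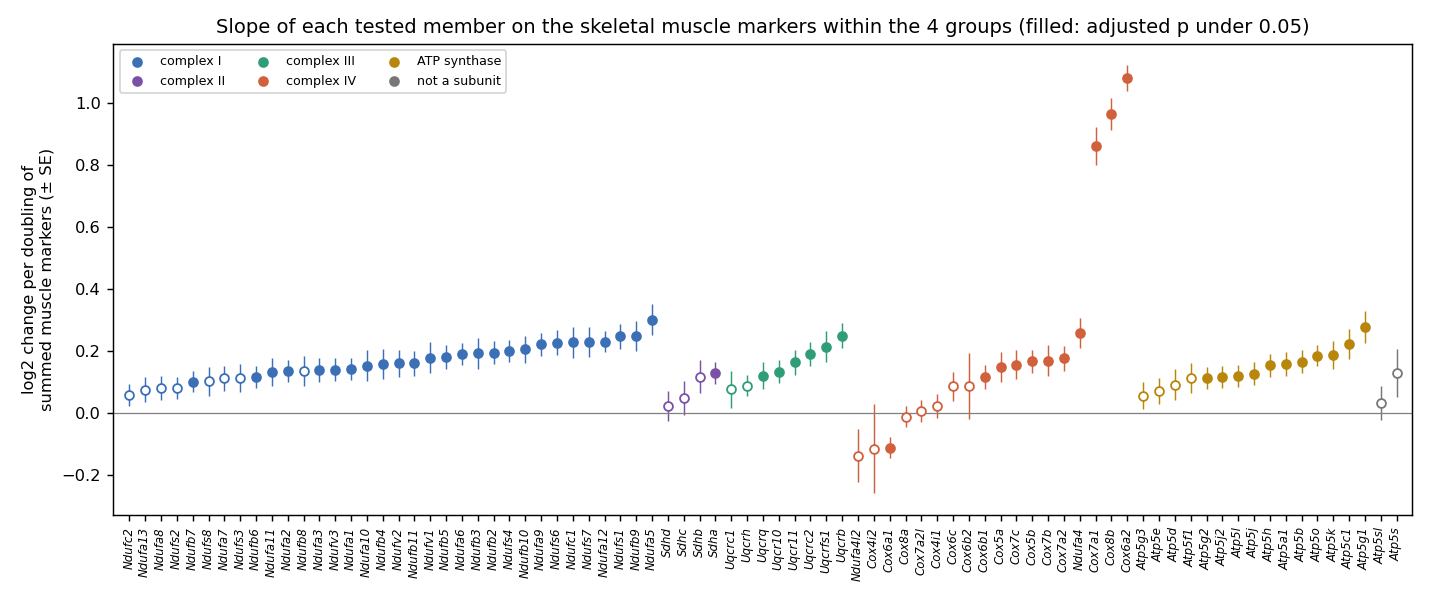
Slope (y axis, log2 change per doubling of the summed skeletal muscle markers within groups, ± SE) of each of the 81 tested members, ordered by complex and slope on the x axis; filled points have a limma adjusted p under 0.05. Cox7a1, Cox8b and Cox6a2 lie between 0.86 and 1.08, the other members at or below 0.30, and Cox6a1 is the only filled point below 0.

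As shares of all normalized counts, all members together took 2.06 ± 0.134% (SD, n = 4) in the WT controls, against 2.00 ± 0.269% (SD, n = 4) in those of the knockout. With arthritis they took 1.80 ± 0.229% (SD, n = 5) in WT and 1.79 ± 0.0990% (SD, n = 5) in the knockout. Cox6a2 alone took 0.196 ± 0.0428% in WT control and 0.0789 ± 0.0445% in Sema3b-/- arthritis, and as little as 0.0101% in WT arthritis replicate 3 and 0.0152% in Sema3b-/- arthritis replicate 2. Without Cox6a2, Cox7a1 and Cox8b the other 80 members took 1.84 ± 0.102, 1.80 ± 0.210, 1.68 ± 0.175 and 1.70 ± 0.0559%, in the same order of groups. These shares are a description and were not tested.

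**Figure D4:**
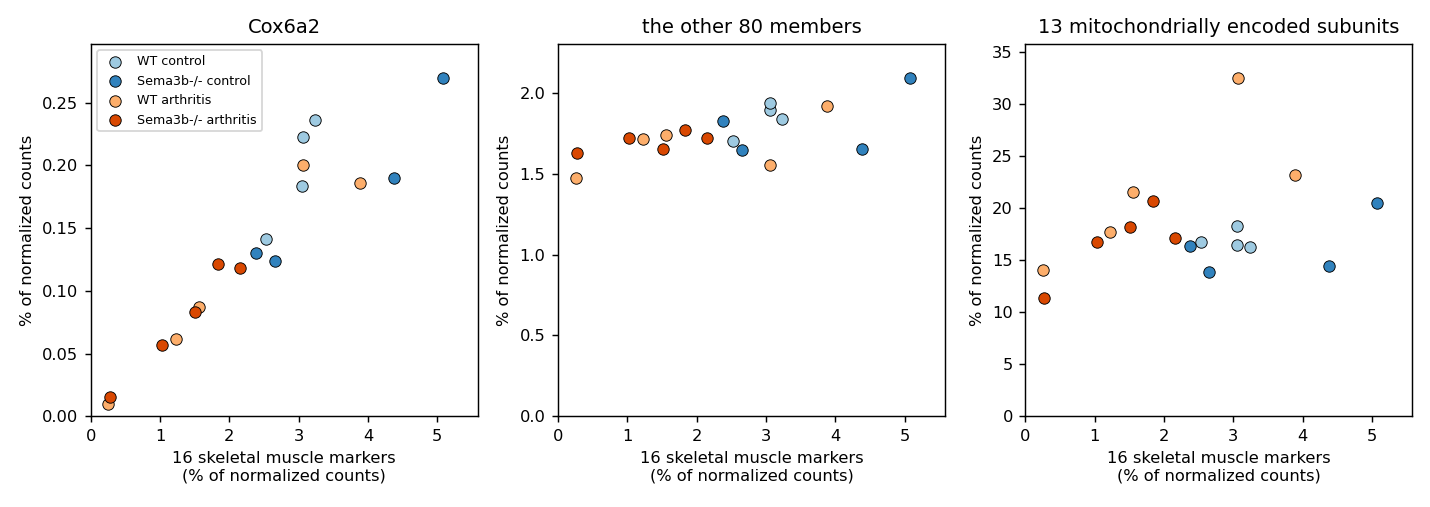
Share of all normalized counts (y axes, %) taken by Cox6a2, by the other 80 members and by the 13 mitochondrially encoded subunits, against the share of the 16 skeletal muscle markers (x axes, %), with 1 point per library coloured by group. Cox6a2 runs from 0.0101 to 0.270% along the muscle share, while the other 80 members stay between 1.47 and 2.09%.

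With the summed muscle markers as a term in the fit, the log2 fold change of arthritis over control was higher than without it in 77 of 81 members in each genotype, and nearer to 0 in 52 members in Sema3b-/- and 25 in WT. The term shifts each gene by its slope above times the group difference in markers, which were lower in arthritis in both genotypes. The direction and size of these shifts therefore restate the slopes and are not a separate result. The median of the members was 0.08 in Sema3b-/- and 0.20 in WT, where without the term it was -0.24 and 0.02. In Sema3b-/- Cox4i2 was called lower (log2 fold change -1.72, limma adjusted p = 0.0436) and Uqcrh higher (0.41, limma adjusted p = 0.0467), where 6.64% of all genes were called. In WT Ndufc2, Atp5e and Ndufs4 were called higher and Atp5sl lower, where 4.48% of all genes were called. Cox6a2 was at 0.35 in Sema3b-/- and -0.28 in WT, Cox8b at 0.15 and -0.37, and Cox7a1 at -0.19 and -0.43. Ndufv1, Ndufs1 and Atp5b no longer passed in Sema3b-/-, with log2 fold changes of -0.45, -0.24 and -0.22 (limma adjusted p = 0.111, 0.321 and 0.329).

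**Figure D5:**
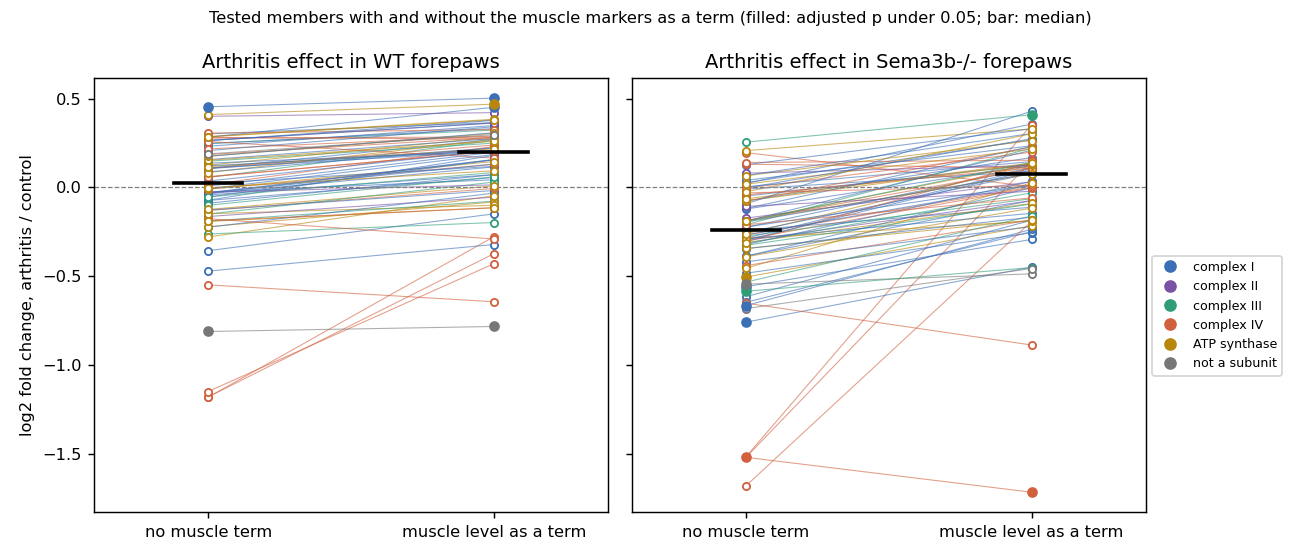
Log2 fold changes of arthritis over control (y axis) of the 81 tested members in the fit without and with the muscle markers as a term (x axis), joined by a line per gene; filled points have a limma adjusted p under 0.05 and bars are medians. The median moves from 0.02 to 0.20 in WT and from -0.24 to 0.08 in Sema3b-/-. The 3 muscle isoforms move most because their slopes on the markers are the highest.

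Loss of Sema3b changed no member by the test. In control forepaws 0 of 81 members passed in limma, where 0.0145% of all genes did, and 2 had an unadjusted p under 0.05; edgeR and DESeq2 called 0 as well. The median over the members was 0.12 with 61 positive and 20 negative values, where 50.8% of all genes were negative. It was -0.00 with values scaled to the library total, where all genes moved to -0.13. Without Sema3b-/- control replicate 4 the median was -0.04, which turns its direction, and without WT control replicate 3 it was 0.06. Ndufa4l2 had the highest log2 fold change, 0.63 (SE 0.28, limma adjusted p = 0.835), and was the 1 member whose control groups did not overlap (higher in 2.07% and lower in 2.13% of all genes). Cox4i2 followed at 0.48, and Ndufa5 and Ndufa6 had the lowest values, -0.17 and -0.17.

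In arthritic forepaws 0 of 81 members passed in limma, where 0.0217% of all genes did, and 8 had an unadjusted p under 0.05; edgeR called 0 and DESeq2 called Atp5s, where DESeq2 called 0.681% of all genes. The median was -0.16 with 72 negative values, where 49.7% of all genes were negative, and 0.03 with values scaled to the library total, where all genes moved to 0.19. It was -0.08 without WT arthritis replicate 2, -0.10 without Sema3b-/- arthritis replicate 2 and -0.27 without WT arthritis replicate 3. Atp5s, also called Dmac2l, was at 75.4, 55.4, 43.7, 68.0 and 72.3 in WT arthritis and 29.8, 25.6, 40.2, 31.4 and 33.3 in Sema3b-/- arthritis, with no overlap. The log2 fold change was -0.94 (SE 0.22, limma adjusted p = 0.196). Cox6c was the other of 2 members that were lower throughout, where 0.999% of all genes were lower and 0.775% higher. Atp5s in the control groups was at 51.9, 57.8, 50.7 and 56.3 in WT and 56.6, 46.9, 33.2 and 79.1 in Sema3b-/-, which overlapped. After Atp5s the lowest value was that of Cox4i2, -0.49, and the highest were those of Atp5sl, 0.39, and Cox6b2, a testis isoform of complex IV, 0.23. WT arthritis held 1 female and 4 males, and Sema3b-/- arthritis 4 females and 1 male. With sex as a term limma called 0.029% of all genes, and the part of sex in the median was not tested.

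The difference between the genotypes in the response to arthritis was negative in 77 of 81 members, with a median of -0.28, where 49.1% of all genes were negative. Members moved together between libraries (pooled SD of their median log2 level 0.226), so these signs are not separate results. Without Sema3b-/- control replicate 4 the median was -0.115, and without WT arthritis replicate 2 it was -0.175. No member passed in limma, where 0.0% of all genes did, and 5 had an unadjusted p under 0.05; edgeR and DESeq2 called 0. All 18 complex IV members had a negative value, as had 33 of 34 in complex I. With values scaled to the library total the median was 0.04, with all genes at 0.32. The 2 arthritis effects are therefore not shown to differ for any member, and Cox4i2 had the lowest value, -0.97 (SE 0.60, limma adjusted p = 0.974), followed by Atp5s at -0.87, while Atp5sl (0.27) and Atp5g2 (0.07) had the highest. The muscle markers were negative here too, in 16 of 16 with a median of -0.73. They were not alone, since cartilage (8 of 8, median -1.69), erythroid (4 of 4, -1.39) and bone markers (8 of 9, -0.83) were also negative. Epidermis markers were positive in 10 of 11 (median 0.31) and macrophage markers in 12 of 12 (0.48). Sex was tied to the groups as well. WT went from 4 females in control to 1 female and 4 males in arthritis. Sema3b-/- went from 2 females and 2 males to 4 females and 1 male. With sex as a term limma called 0.0% of all genes here. The part of muscle, of these other tissues and of sex in the median was not tested.

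Other genes of the pathway changed in few cases. Of all genes tested, 4.21% were called in WT arthritis and 12.4% in Sema3b-/- arthritis. More calls in Sema3b-/- than in WT are therefore not particular to the lists below. Of 5 subunits and regulators outside the symbol rule, Atpif1, which encodes the inhibitor of ATP synthase, rose in WT arthritis (log2 fold change 0.61, limma adjusted p = 0.0282) and was at 0.44 in Sema3b-/- (limma adjusted p = 0.0610). Cyc1, the cytochrome of complex III, was at -0.13 in WT and -0.46 in Sema3b-/-, and Usmg5, a small ATP synthase subunit, at 0.25 and -0.08. Of 43 assembly factors tested, none changed in WT and 1 rose in Sema3b-/-, Pet100, a complex IV assembly factor (0.57, limma adjusted p = 0.0486). Cox16 was at 0.38 in WT and 0.23 in Sema3b-/-, and Ecsit, a complex I assembly factor, at -0.19 and -0.69. In the pyruvate dehydrogenase and citric acid cycle list of 16, none changed in WT and 2 fell in Sema3b-/-, Idh3b at -0.81 and Ogdh at -0.51 (limma adjusted p = 0.0340 and 0.0367), each a part of a dehydrogenase of the cycle, with Dlat of pyruvate dehydrogenase at -0.48. Medians of that list were -0.24 in WT and -0.40 in Sema3b-/-.

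Among 13 carriers and energy transfer genes, Slc25a4, the muscle and heart exchanger of ADP and ATP, fell in Sema3b-/- arthritis (-1.08, limma adjusted p = 0.0299), and Ckmt2, the creatine kinase of striated muscle mitochondria, was at -2.73 (limma adjusted p = 0.0513). Slc25a12, the aspartate and glutamate carrier, was at -0.64 in WT and -0.82 in Sema3b-/-, and Vdac3, an outer membrane channel, at 0.33 and -0.01. Of 16 regulators of mitochondrial biogenesis, Esrrb, an orphan receptor, fell in Sema3b-/- (-2.65, limma adjusted p = 0.0323) and none changed in WT. For both lists the shares of all genes called were again 4.21% in WT and 12.4% in Sema3b-/-. Esrra, a related receptor, was at -0.65 in WT and -0.55 in Sema3b-/-, Tfb2m, a mitochondrial transcription factor, at 0.42 and 0.41, and the gene listed as 2310042D19Rik at -1.06 and -2.31. The 13 mitochondrially encoded subunits had no call, with mtCo1 at 0.86 in WT and 0.59 in Sema3b-/-, mtNd3 at 0.66 and 0.29, and mtNd5 at 0.87 and -0.19. All 13 were positive in WT arthritis, with a median of 0.57, against a median of -0.05 in Sema3b-/-, and WT arthritis replicate 1 was the highest library, with 32.5% of its counts from these genes.

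Markers of other cells moved with arthritis beside the members. All 16 skeletal muscle markers had negative log2 fold changes in both genotypes, with medians of -0.79 in WT and -1.71 in Sema3b-/- and no call, and of 10 markers of slow fibres 1 fell in WT and 2 in Sema3b-/-. Epidermis markers had medians of -1.76 and -1.41 with no call. Of 8 cartilage markers none changed in WT and 4 fell in Sema3b-/-, with medians of -0.70 and -2.44. Bone markers fell in 1 of 9 in WT and 4 of 9 in Sema3b-/- (medians -0.80 and -1.57), and adipocyte markers in none of 10 and 2 of 10 (medians -0.70 and -0.88). Of 12 macrophage markers 3 rose in WT and 10 in Sema3b-/-, and of 10 neutrophil markers 3 and 4. Of all genes tested, 2.64% rose and 1.58% fell in WT, and 6.84% rose and 5.55% fell in Sema3b-/-. The genotype by arthritis interaction called 0.0% of all genes, so the larger knockout counts do not show a stronger response of these cells. In summed counts, the macrophage markers took 0.137 to 0.168% in WT control, 0.122 to 0.382% in WT arthritis, 0.0952 to 0.182% in Sema3b-/- control and 0.230 to 0.398% in Sema3b-/- arthritis. The part of these cells in the members' values was not tested beyond the fits with the muscle term.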

How the data were processed

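CEL-seq libraries of 18 mouse forepaws were analysed from the deposited table. Per the submitters' processing notes, reads were aligned with BWA to mm10 and analysed with DESeq2 1.32, while no source used here gives the counting tool, the annotation or any use of molecular barcodes. The deposited signal values are whole read counts divided by 1 size factor per library, as 100.0% of the values came out whole, and the reads recovered from them were used only in alternatives. The deposited log2 fold changes and adjusted p-values of the authors were used only for the calls named as theirs. Symbols turned into dates in the table were restored.

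Genes reaching a value of 10 in 4 or more libraries entered limma 3.58.1 (R 4.3.3; trend and robust empirical Bayes) on log2(value + 1), with 4 group means over all 18 libraries and Benjamini-Hochberg adjustment over all genes tested. Fold changes on this scale understate changes of low genes. Ratios of paralogs were tested by two-sided exact permutation. Alternatives included edgeR 4.0.16 and DESeq2 1.42.0 on the recovered reads. The fits were tested on simulated data. Depth sets the counting error only, and reads may not be independent molecules.

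The members and gene lists were chosen with earlier results of these data known. Values by library are given for the 5 paralog pairs and, in each complex, for the 2 members with the lowest p with arthritis in Sema3b-/- and the 1 with the lowest in WT. Also named are members called or not tested, the 2 highest and 2 lowest fold changes of each comparison, and in each other list the 2 lowest p of each arthritis effect. Atp5s and Atp5sl were given by library after their values were seen. Replicate numbers in the titles do not pair the libraries. The column of Sema3b-/- arthritis replicate 5 carries a control-like suffix and was grouped by its label. Without this library the count of members called in Sema3b-/- arthritis was 1.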

Additional observations from a re-analysis of the deposited data

Results flagged for a closer look

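In 3 of 92 groups of libraries looked at, 1 library stood far from the rest of its group by Dixon's test, where chance gives about 1 in 20 groups. Cox8b was at 65.4 normalized counts in Sema3b-/- arthritis replicate 2, below the other 4 libraries of that group. This library was also the lowest of its group in muscle markers (0.275% of counts) and epidermis markers (0.0624%). Cox5a was at 1392 in the same library. Sdhb was at 1140 in Sema3b-/- control replicate 4, the library with the highest shares of muscle markers (5.07%) and epidermis markers (4.43%). The part of muscle or other tissue content in these values was not tested library by library.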

How the results depend on the processing

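The number of members called with arthritis in WT, 2 as reported, was 4 with scaling to the library total (0 higher, 4 lower), 4 with DESeq2, 4 with the muscle term, 1 with only the 2 groups compared, 1 without the 3 libraries of the other title style, 0 with sex as a term, and 1 to 3 when each library was left out. In Sema3b-/-, 7 as reported, it was 12 with DESeq2, 11 with sex, 3 without the filter on low values, 3 with only the 2 groups compared, 2 with the muscle term, 1 without the other title style, and 1 to 9 when each library was left out. Over all genes, 16.1% were called in Sema3b-/- with DESeq2, 8.09% without the filter and 7.23% with only the 2 groups compared, and in WT 9.26% with DESeq2 and 1.96% with only the 2 groups compared. Such shares are not given for the fits that left out 1 library. The Sema3b-/- median was 0.0775 with the muscle term, and -0.315 to -0.0952 when each library was left out. When each library was left out, the median ranged from -0.0396 to 0.165 in WT, from -0.0357 to 0.178 for Sema3b loss in control, from -0.266 to -0.0837 for Sema3b loss in arthritis, and from -0.372 to -0.115 for the interaction. For Sema3b loss in arthritis DESeq2 called 1 member, and the median interaction was 0.0405 with scaling to the library total. Positive slopes on muscle markers, 54 as reported, numbered 22 with scaling to the library total, 31 without the 2 libraries lowest in muscle markers, and 31 to 55 when each library was left out. The cause was not tested. With a replicate block, 1 member was called in WT and 1 in Sema3b-/-, where 1.42% and 7.39% of all genes were called. Same-numbered libraries correlated at -0.658 to 0.414, with 7 of 25 pairs above 0.1, and 3 of 18 libraries were closest to their own number, so the numbers are not used as pairs. Pseudocounts of 0.5 and 5, TMM scaling, a mean filter of 50 and edgeR kept both arthritis counts within 1.5 times. The slope and its alternatives were added after the data were seen. Members with few reads, such as Cox4i2, are limited by depth.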
